A study of Mus musculus with 9 samples.

Results

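The transcripts of 10 cytokine genes were followed in mouse splenic T cells: Ifng, the interferon of type 1 immunity; Il4, Il5 and Il13, the type 2 interleukins; Il17a, the type 17 interleukin; Il10 and Il24, members of the interleukin-10 family; the hematopoietic growth factor genes Il3 and Csf2; and Lif, which encodes leukemia inhibitory factor. The genes were chosen as the effector and helper cytokines of the study, with earlier results of these data known. They were found by their Ensembl gene identifiers, 10 of the 49671 genes in the deposited count table. All 10 passed the filter on low counts and were among the 18374 genes tested. The cells came from female F1 mice bred from C57BL/6 mothers that carried a heterozygous Xist deletion and castaneus fathers, a cross with skewed X inactivation. Splenic CD3+ cells were enriched on columns and total RNA was sequenced in 3 libraries for each of 3 groups. In the IMD-0354 group, cells were held for 48 hours on plate-bound anti-CD3 (1 µg/ml) with soluble anti-CD28 (10 µg/ml) and 2.5 µM IMD-0354, a small molecule known to inhibit the kinase IKK-beta, which activates NF-kB. The stimulated group had the same culture without IMD-0354. The unstimulated group went into TRIzol straight after enrichment. All 3 groups shared the F1 cross, and the labels give no age. The labels name no vehicle for the stimulated cells and no unstimulated culture, so that culture and stimulation cannot be told apart. The labels call the libraries biological replicates and do not tie them to animals, so that p-values measure the spread between these libraries.

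Helper and cytotoxic T cells that meet antigen secrete cytokines in characteristic sets. Ifng arms macrophages and antigen presentation, the type 2 genes Il4, Il5 and Il13 drive IgE class switching, eosinophils and mucus, and Il17a recruits neutrophils. Il10 restrains inflammation, while Csf2 and Il3 feed myeloid cells. In activated T cells the promoters and enhancers of many cytokine genes are bound by NFAT, AP-1 or NF-kB proteins. Signals from the T cell receptor and CD28 activate these proteins.

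The 9 libraries held 34009988 to 56221174 counts. In the IMD-0354 group library 1 stood apart, with 30106 genes detected, where the remaining 8 detected 20547 to 23223, and 5096 genes were detected there alone. In the unstimulated group, library 2 had the highest summed level of B cell and myeloid markers. The CD3+ label was checked against 8 T cell markers, among them Cd3d, Cd3e and Cd3g, which were all present and summed to 1585 to 1658 CPM (counts per 1000000 counts of the normalised library) in IMD-0354 libraries, 1600 to 1760 CPM in stimulated libraries and 1328 to 2024 CPM in unstimulated libraries. Other cell types were best represented in unstimulated cells: 8 B cell markers summed to 146 to 150 CPM in IMD-0354, 73.7 to 82.3 CPM in stimulated and 525 to 1414 CPM in unstimulated libraries. The 8 myeloid and dendritic markers summed to 27.2 to 44.2 CPM in IMD-0354, 16.6 to 21.5 CPM in stimulated and 911 to 1879 CPM in unstimulated libraries, with Siglech at 0 in all stimulated libraries. All 8 of each list fell with stimulation, and against stimulated cells 4 B cell markers rose and 0 fell with IMD-0354, with 4 up and 1 down in the myeloid list. In bulk RNA, fewer cells of a type and less RNA per cell cannot be told apart.

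The 250 bases before the start are shown for 5 members. Il4, Il5 and Il13 lie close together on chromosome 11 and fell with IMD-0354, Il3 lies farther along the same cluster and did not pass the test, and Lif is the member whose window held the most matches. The sequences are RefSeq promoters of GRCm38.p6, written 5′ to 3′ along the gene's own strand, and capitals mark matches to any of 3 motifs searched: an NF-kB type motif (GGG, then any 5 bases, then CC), TGANTCA (AP-1) and GGAAA (NFAT core), each on both strands.
Il4, chr11:53618666-53618915, minus strand: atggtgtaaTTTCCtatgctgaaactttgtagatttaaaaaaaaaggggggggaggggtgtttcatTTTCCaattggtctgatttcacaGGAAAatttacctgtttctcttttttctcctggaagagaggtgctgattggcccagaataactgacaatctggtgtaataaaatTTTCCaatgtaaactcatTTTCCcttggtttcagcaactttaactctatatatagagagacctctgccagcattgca
Il13, chr11:53634703-53634952, minus strand: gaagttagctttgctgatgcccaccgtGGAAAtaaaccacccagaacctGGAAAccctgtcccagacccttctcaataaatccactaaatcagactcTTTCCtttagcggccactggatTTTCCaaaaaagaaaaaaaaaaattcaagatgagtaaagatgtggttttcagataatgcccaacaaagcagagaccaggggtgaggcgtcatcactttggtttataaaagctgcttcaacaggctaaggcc
Il5, chr11:53720544-53720793, plus strand: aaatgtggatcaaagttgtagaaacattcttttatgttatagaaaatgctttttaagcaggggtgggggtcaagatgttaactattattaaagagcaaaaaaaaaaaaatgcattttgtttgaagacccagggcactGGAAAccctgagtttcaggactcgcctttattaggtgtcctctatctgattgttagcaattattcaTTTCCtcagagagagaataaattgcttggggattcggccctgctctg
Il3, chr11:54267280-54267529, minus strand: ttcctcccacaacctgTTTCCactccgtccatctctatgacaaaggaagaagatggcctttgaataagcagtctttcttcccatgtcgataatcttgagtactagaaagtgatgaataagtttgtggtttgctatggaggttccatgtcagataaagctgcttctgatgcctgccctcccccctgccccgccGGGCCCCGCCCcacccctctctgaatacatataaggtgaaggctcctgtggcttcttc
Lif, chr11:4257318-4257567, plus strand: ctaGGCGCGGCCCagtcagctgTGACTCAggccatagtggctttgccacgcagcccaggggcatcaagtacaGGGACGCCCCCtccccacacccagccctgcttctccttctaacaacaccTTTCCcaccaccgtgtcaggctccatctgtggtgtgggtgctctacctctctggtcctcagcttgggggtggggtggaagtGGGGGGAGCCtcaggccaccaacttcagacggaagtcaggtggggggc
The table holds a pair of Il4 windows, and the one shown starts nearest to the GENCODE start, 4 bases away. It held 5 NFAT core matches, the Il13 window 4 and the Il5 window 2, and none of these 3 held an NF-kB type or AP-1 match. The other Il4 window, with its start 1331 bases from the GENCODE start, held 1 NFAT core match over its 300 bases and no NF-kB type or AP-1 match. Il3 had 1 NFAT core match and 2 NF-kB type matches that overlap in a GC-rich run. Lif had 4 NF-kB type matches, 2 of them overlapping, with 1 AP-1 and 1 NFAT core match. Over all 32851 windows of the table, taken from 250 bases before to 50 after the start, 50.8% held the NF-kB type motif, 7.81% held TGANTCA and 61.3% held GGAAA. In those longer windows Ifng had 1 NFAT core match, Il17a 1 NF-kB type and 1 AP-1 match, and Csf2 1 NF-kB type and 3 NFAT core matches, where the NF-kB type match overlapped an NFAT core match. The RefSeq start of Csf2 lies 232 bases from the GENCODE start. The further motif ACGTG, the core bound by hypoxia-inducible factors, was in 19.6% of all windows and in none of the members' windows. Windows were in the table for 8 of the 10 members; Il10 and Il24 are named only. A match describes these letters and is not a bound site.

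Stimulation raised all 10 genes, and IMD-0354 lowered 7 of them while Il3, Csf2 and Il17a did not pass the test. With stimulation, 10 of 10 rose and 0 fell at an adjusted p under 0.05, where 32.0% of all tested genes rose and 34.0% fell (edgeR quasi-likelihood test, Benjamini-Hochberg adjustment over all tested genes). The stimulated and unstimulated libraries did not overlap for any of the 10, and 35.4% of all tested genes were likewise separated upwards. Il3 and Il24 had 0 counts in unstimulated cells, and Il5, Il17a and Il13 had 4, 16 and 29. These genes passed the filter through the cultured groups, so that a fall below unstimulated cells could hardly have been called for them. With IMD-0354, 7 of 10 fell and 0 rose against stimulated cells, beside 22.8% of all genes that fell and 21.7% that rose. Those 7 were also the members whose libraries did not overlap, against 29.4% of all genes separated downwards. A fall to a log2 fold change of -2 or below was called for 6 of the 10 and for 5.01% of all genes, and a rise of at least 2 with stimulation for 10 of 10 and 8.19%. Against unstimulated cells, IMD-0354 cells were higher in 7 members and lower in 2, Il4 and Il10, where 26.3% of all genes were higher and 26.1% lower. The median log2 fold change of the 10 genes was 5.97 for stimulated over unstimulated cells and -2.99 for IMD-0354 over stimulated cells, and over all tested genes it was -0.05 and 0.03. These comparisons share the stimulated libraries. Within the IMD-0354 group, library 3 had the highest CPM of every member. The members summed to 320 CPM there, against 235 and 222 CPM in IMD-0354 libraries 1 and 2. The members were chosen with earlier results of these data known, so that the shares over all genes stand beside them as description only. Without IMD-0354 library 1 and unstimulated library 2, a fit added after the data were seen, the counts were 10 up with stimulation, 7 down with IMD-0354 against stimulated cells, and 7 up and 1 down against unstimulated cells.

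**Figure D1:**
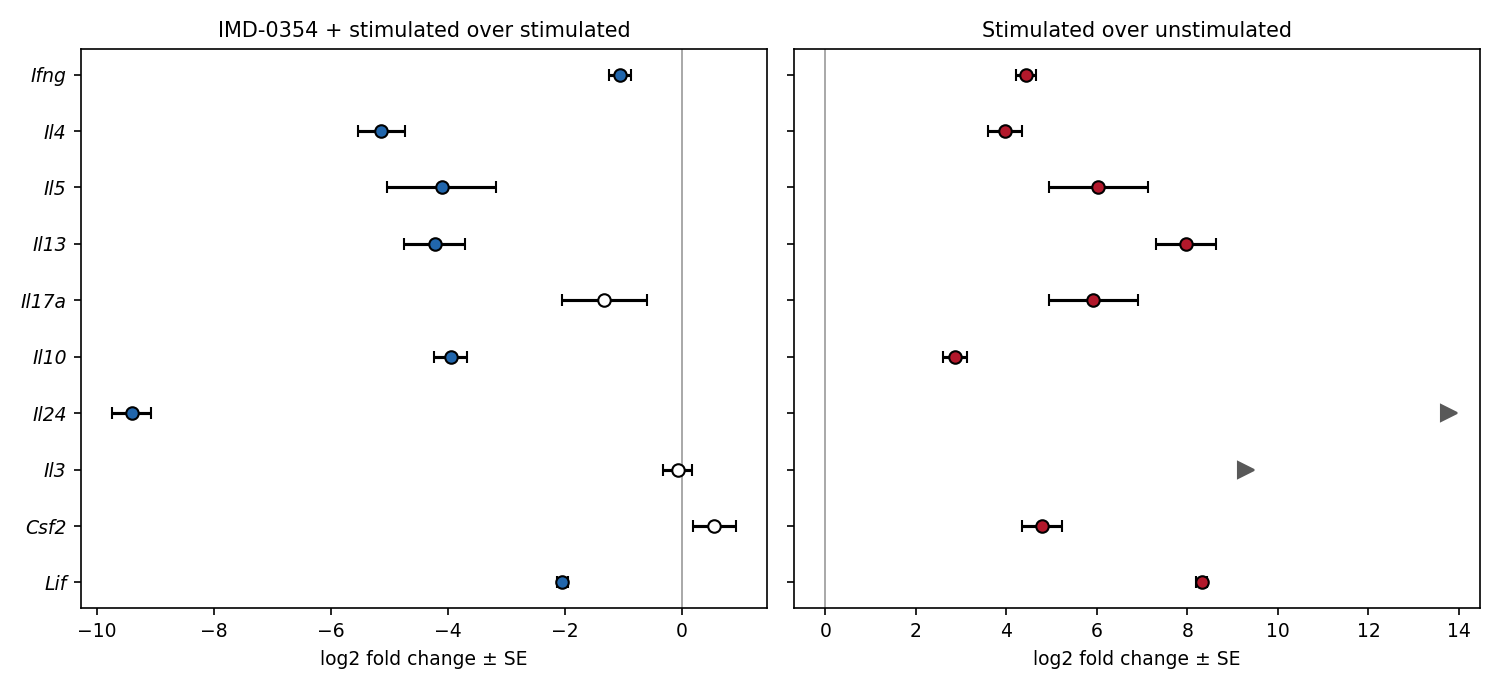
Log2 fold changes with their approximate standard errors for the 10 cytokine genes, IMD-0354 + stimulated over stimulated (left) and stimulated over unstimulated (right). Filled circles passed an adjusted p of 0.05 and open circles did not. Triangles give the stimulated mean over a floor of 3 counts for Il3 and Il24, which had 0 counts in unstimulated cells. Il24 lies farthest left at -9.40, and Il3 and Csf2 lie at -0.07 and 0.56.

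**Figure D2:**
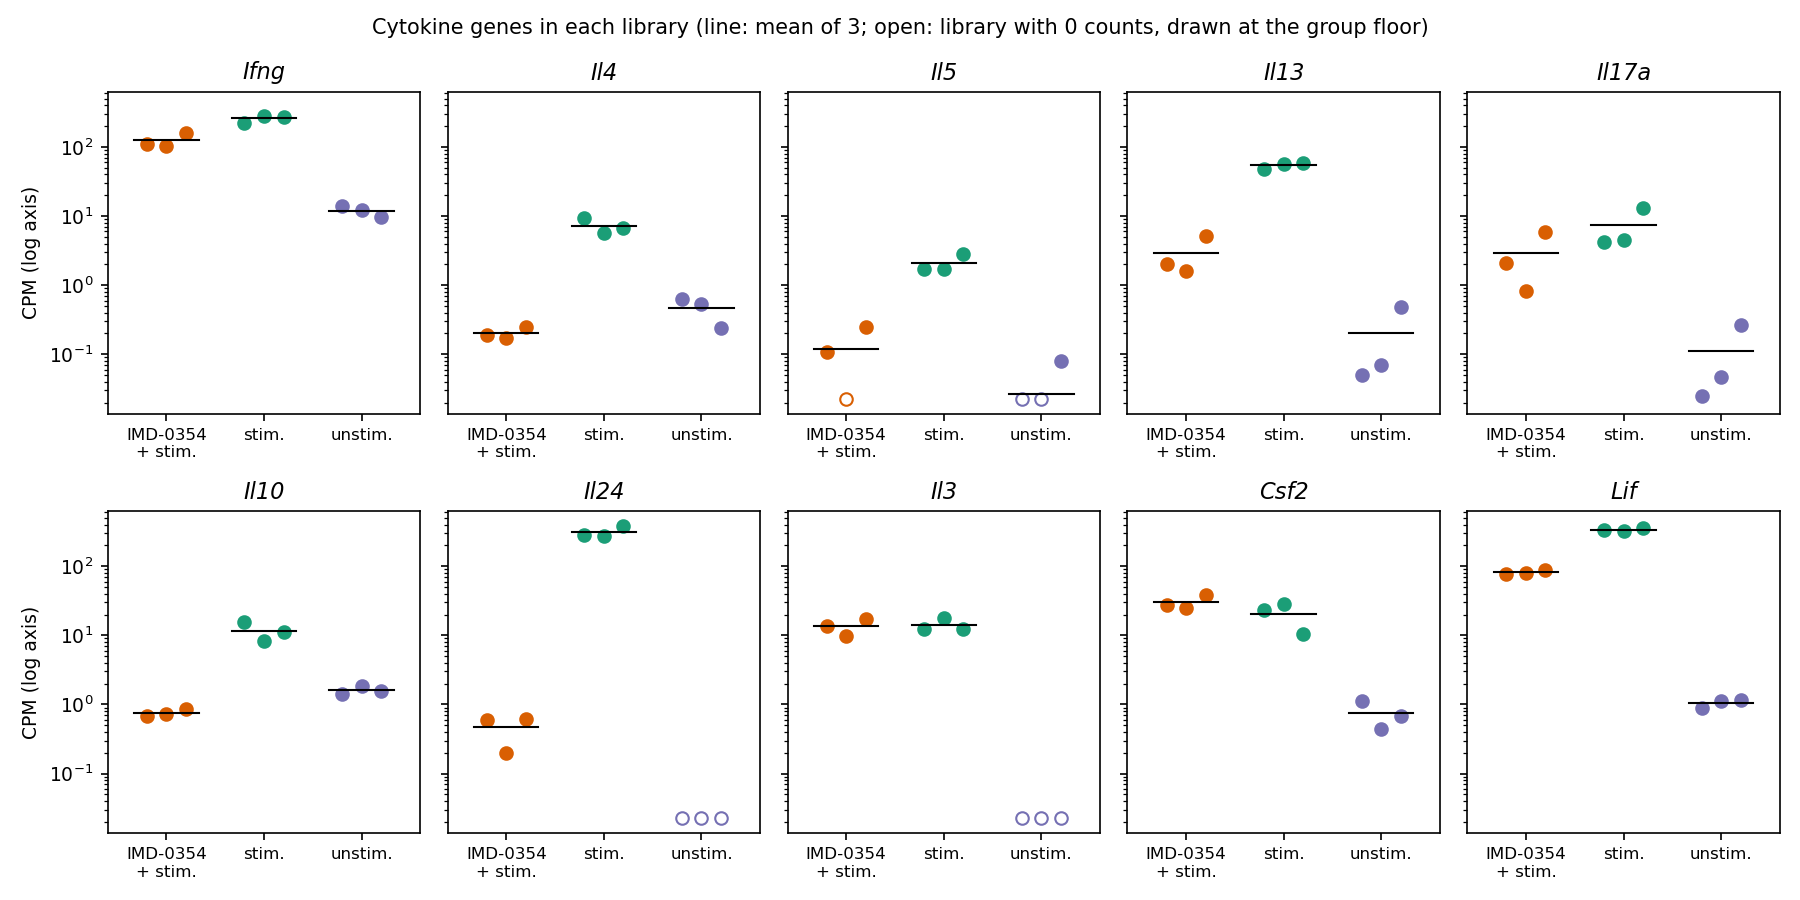
CPM (log axis) of each cytokine gene in the 3 libraries of each group; points are libraries 1, 2 and 3 from left to right, lines are group means, and open points are libraries with 0 counts drawn at the floor of 3 counts over the group. The 3 stimulated libraries lie above the 3 unstimulated ones in every panel, while the IMD-0354 libraries range from below the unstimulated ones (Il10) to level with the stimulated ones (Il3).

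Ifng (ENSMUSG00000055170), the signature cytokine of T helper 1 and CD8+ cells, lies on chromosome 10 from 118441046 to 118445892 on the plus strand (mm10). Ifng stood at 111, 103 and 162 CPM in the IMD-0354 libraries, 222, 283 and 275 CPM in the stimulated ones and 14.1, 12.4 and 9.59 CPM in the unstimulated ones. The 3 groups did not overlap, and unstimulated cells already held the transcript in every library. Stimulation raised it 21.6-fold in the means, with a log2 fold change of 4.44 ± 0.22 (SE, edgeR adjusted p = 1.2e-07). IMD-0354 cells kept 48.2% of the stimulated mean, a log2 fold change of -1.05 ± 0.19 (SE, edgeR adjusted p = 0.0014), and stood 10.4-fold above unstimulated cells (edgeR adjusted p = 8.6e-07). Natural killer cells also make this cytokine: their 8 markers summed to 70.2 to 87.5 CPM in IMD-0354, 206 to 323 CPM in stimulated and 567 to 644 CPM in unstimulated libraries. Of these markers 1 rose and 6 fell with IMD-0354, and 0 rose and 7 fell with stimulation. Most of the sum in stimulated cells was Gzma and Prf1, at 129 and 68.0 CPM. Most of the sum in IMD-0354 cells was Eomes and Prf1, at 33.2 and 32.6 CPM. T cells can also express these genes, so that the sum does not follow natural killer cells alone. Ncr1, which defines natural killer cells, averaged 0.120 CPM in IMD-0354, 1.46 CPM in stimulated and 74.1 CPM in unstimulated cells. The part of natural killer cells in the Ifng level was not tested.

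All 3 type 2 genes rose with stimulation and fell with IMD-0354, which left 2.80% to 5.64% of their stimulated means. Il4 (ENSMUSG00000000869), which drives IgE switching and T helper 2 differentiation, had 0.190, 0.174 and 0.246 CPM in IMD-0354 libraries, 9.36, 5.77 and 6.65 CPM in stimulated libraries and 0.624, 0.534 and 0.243 CPM in unstimulated libraries. The stimulated libraries stood apart, while the highest IMD-0354 library reached the lowest unstimulated one. Stimulation raised Il4 by 3.97 ± 0.37 on the log2 scale (SE, edgeR adjusted p = 7.3e-06), and with IMD-0354 the log2 fold change was -5.13 ± 0.40 (SE, edgeR adjusted p = 8.6e-06), which left 2.80% of the stimulated mean. Il4 was also lower in IMD-0354 than in unstimulated cells, with a log2 fold change of -1.17 ± 0.41 (SE, edgeR adjusted p = 0.035). That last call rests on 27 counts in the 3 IMD-0354 libraries against 60 in the unstimulated ones and was lost in 11 of 19 alternatives, in which the adjusted p reached 0.271.

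Il13 (ENSMUSG00000020383), the mucus and goblet cell cytokine, had 2.01, 1.61 and 5.07 CPM in IMD-0354 libraries, 48.3, 56.0 and 58.6 CPM in stimulated libraries and 0.0499, 0.0696 and 0.486 CPM in unstimulated libraries, with no overlap between any 2 groups. Library 3 was the highest in each group, and the stimulated libraries lay closest together. The log2 fold change was 7.97 ± 0.67 for stimulated over unstimulated cells (SE, edgeR adjusted p = 3.6e-06) and -4.22 ± 0.52 for IMD-0354 over stimulated cells (SE, edgeR adjusted p = 1.4e-04). IMD-0354 cells kept 5.33% of the stimulated mean and stayed 14.3-fold above unstimulated cells, a log2 fold change of 3.75 ± 0.65 (SE, edgeR adjusted p = 7.8e-04). Without unstimulated library 3 the changes over unstimulated cells were 9.76 (stimulated) and 5.54 (IMD-0354), and without IMD-0354 library 3 the changes of IMD-0354 cells were -4.91 against stimulated and 3.05 against unstimulated cells.

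Il5 (ENSMUSG00000036117), the eosinophil growth factor, had 0.108, 0 and 0.246 CPM in IMD-0354 libraries, 1.73, 1.73 and 2.82 CPM in stimulated libraries and 0, 0 and 0.0811 CPM in unstimulated libraries. These values come from 16 counts in the IMD-0354 group, 311 in the stimulated group and 4 in the unstimulated group, where a floor of 3 counts over the group would be 0.0226 CPM. Floors cover counting error only. Stimulation raised Il5 by 6.03 ± 1.09 (log2, SE, edgeR adjusted p = 7.3e-04), and IMD-0354 lowered it to 5.64% of the stimulated mean, a log2 fold change of -4.10 ± 0.93 (SE, edgeR adjusted p = 0.0051). IMD-0354 and unstimulated cells overlapped, and their difference of 1.93 ± 1.23 did not pass the test (SE, edgeR adjusted p = 0.22). Unstimulated library 3 held all 4 unstimulated counts, and without it the changes over unstimulated cells were 9.57 (stimulated) and 5.47 (IMD-0354, edgeR adjusted p = 0.0624). Without IMD-0354 library 3 the changes of IMD-0354 cells were -5.32 against stimulated and 0.71 against unstimulated cells. An antisense gene, Gm12214, overlaps Il5 and had 1 count in IMD-0354, 0 in stimulated and 10 in unstimulated libraries. With the counting strand not given, the reads of the 2 genes cannot be told apart.

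Cells other than T cells also make type 2 cytokines. The 11 markers of mast cells, basophils and eosinophils summed to 10.0 to 16.3 CPM in IMD-0354, 5.35 to 8.19 CPM in stimulated and 65.2 to 140 CPM in unstimulated libraries. All 11 fell with stimulation, and with IMD-0354 1 rose and 0 fell. Their defining markers Mcpt8, Cpa3 and Fcer1a averaged 0.0957, 0.448 and 0.170 CPM in IMD-0354 cells, 0.0632, 0.0957 and 0.119 CPM in stimulated cells and 1.73, 1.23 and 0.711 CPM in unstimulated cells. Kit had the highest mean of the 11, with 9.74 CPM in IMD-0354, 3.20 CPM in stimulated and 52.4 CPM in unstimulated cells. The 6 markers of type 2 innate lymphoid cells summed to 107 to 136 CPM in IMD-0354, 266 to 297 CPM in stimulated and 94.1 to 111 CPM in unstimulated libraries, but most of that sum was Gata3, which T cells also express, and Il1rl1 and Il17rb averaged 1.78 and 0.236 CPM in stimulated cells. Of the 6, 1 rose and 4 fell with stimulation, and 1 rose and 1 fell with IMD-0354. The part of either cell type in the type 2 levels of any group was not tested.

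Il17a (ENSMUSG00000025929), the neutrophil-recruiting cytokine of T helper 17 and gamma-delta T cells, rose with stimulation and varied widely between libraries. It had 2.06, 0.828 and 5.89 CPM in IMD-0354 libraries, 4.27, 4.50 and 13.2 CPM in stimulated libraries and 0.025, 0.0464 and 0.263 CPM in unstimulated libraries. Library 3 was the highest in each group, and the IMD-0354 and stimulated groups overlapped. The log2 fold change was 5.92 ± 0.98 for stimulated over unstimulated cells (SE, edgeR adjusted p = 3.8e-04) and 4.61 ± 0.96 for IMD-0354 over unstimulated cells (SE, edgeR adjusted p = 0.0025). Against stimulated cells the IMD-0354 mean stood at 40.0%, a log2 fold change of -1.32 ± 0.73 that did not pass the test (SE, edgeR adjusted p = 0.17). Over the alternatives that comparison ran from -2.35 without IMD-0354 library 3 (adjusted p = 0.0339) to -0.58 without stimulated library 3 (adjusted p = 0.602). Stimulated over unstimulated, the value was 5.20 without stimulated library 3 and 7.56 without unstimulated library 3; IMD-0354 over unstimulated, it was 3.57 without IMD-0354 library 3 and 6.25 without unstimulated library 3. The 5 gamma-delta markers in the table summed to 9.07 to 11.0 CPM in IMD-0354, 19.4 to 24.3 CPM in stimulated and 89.3 to 93.2 CPM in unstimulated libraries. Of these 5, 0 rose and 4 fell with stimulation and 1 rose and 3 fell with IMD-0354. The 1 that rose was Blk, with 2.44 CPM in IMD-0354 and 0.960 CPM in stimulated cells, which is also counted among the B cell markers. The part of gamma-delta T cells in the Il17a level was not tested.

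Il10 (ENSMUSG00000016529), the cytokine that restrains macrophages and inflammation, rose with stimulation, and in IMD-0354 cells it was lower than in unstimulated cells. It had 0.678, 0.719 and 0.861 CPM in IMD-0354 libraries, 15.7, 8.19 and 11.2 CPM in stimulated libraries and 1.40, 1.83 and 1.56 CPM in unstimulated libraries. The 3 groups did not overlap, and Il10 was the only member whose IMD-0354 libraries all lay below the unstimulated ones; 30.5% of all tested genes were separated in that way. The log2 fold change was 2.87 ± 0.27 for stimulated over unstimulated cells (SE, edgeR adjusted p = 7.2e-06), the smallest rise of the 10, and -3.95 ± 0.28 for IMD-0354 over stimulated cells (SE, edgeR adjusted p = 5.3e-06). IMD-0354 cells stood at -1.08 ± 0.27 relative to unstimulated cells (log2, SE, edgeR adjusted p = 0.0075), a call that limma voom did not make (adjusted p = 0.103). Myeloid and B cells also transcribe Il10, and their markers, given above, were at their highest in unstimulated cells; of the 8 myeloid markers 4 rose and 1 fell with IMD-0354 against stimulated cells, and all 8 were lower than in unstimulated cells. Their part in the Il10 level was not tested.

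Il24 (ENSMUSG00000026420), a cytokine that signals to epithelial cells through the Il20 receptors, had the widest range between groups of all 10. It had 0.596, 0.196 and 0.615 CPM in IMD-0354 libraries, 286, 276 and 384 CPM in stimulated libraries and 0 counts in each unstimulated library. The stimulated libraries stood far above both other groups. The Il24 mean stood 13925-fold above the floor of 3 counts over the unstimulated group in stimulated cells (edgeR adjusted p = 1.1e-07 against unstimulated cells). In IMD-0354 cells it stood 20.7-fold above that floor (edgeR adjusted p = 9.5e-04). These folds leave out the spread between libraries and would be too high if a fragment was counted as 2 reads. Il24 ranked first among the 18374 genes by fitted fold change on stimulation, with Il3 ranked 2, although the fitted values of both depend on how a count of 0 is treated. With IMD-0354 it kept 0.149% of the stimulated mean, 672-fold lower, a log2 fold change of -9.40 ± 0.33 (SE, edgeR adjusted p = 9.1e-07), which only 1 tested gene exceeded downwards.

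Il24 lies on chromosome 1 from 130882074 to 130887454 on the minus strand, 132 kb from Il10, which spans 131019845 to 131024974 on the plus strand. Their relatives Il19 and Il20 lie between them and were too scarce to test, with means under 0.09 CPM in every group. Il10 and Il24 both rose with stimulation and fell with IMD-0354, but Il24 had 0 counts in unstimulated cells, where Il10 was present in every library. Il17a is on the same chromosome, from 20730905 to 20734496 on the plus strand, 110148 kb from Il24.

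Il3 (ENSMUSG00000018914) and Csf2 (ENSMUSG00000018916), growth factors of mast cells and basophils and of granulocytes and macrophages, rose with stimulation, and neither passed the test between IMD-0354 and stimulated cells. Il3 had 13.6, 9.76 and 17.5 CPM in IMD-0354 libraries, 12.3, 18.0 and 12.5 CPM in stimulated libraries and 0 counts in each unstimulated library. The IMD-0354 and stimulated libraries were interleaved. The Il3 mean stood 601-fold above the floor of the unstimulated group in IMD-0354 cells (edgeR adjusted p = 1.4e-06 against unstimulated cells). In stimulated cells it stood 631-fold above that floor (edgeR adjusted p = 7.2e-07), with the same limits as for Il24. Between IMD-0354 and stimulated cells the log2 fold change was -0.07 ± 0.25 (SE, edgeR adjusted p = 0.85), with its sign turned to 0.06 by upper-quartile scaling and to 0.02 by plain totals.

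Csf2 had 27.3, 25.2 and 38.8 CPM in IMD-0354 libraries, 23.5, 28.2 and 10.4 CPM in stimulated libraries and 1.12, 0.441 and 0.689 CPM in unstimulated libraries. Library 3 was the highest of the IMD-0354 group and the lowest of the stimulated group, and those 2 groups overlapped. The log2 fold change was 5.35 ± 0.45 for IMD-0354 over unstimulated cells (SE, edgeR adjusted p = 6.8e-06) and 4.79 ± 0.44 for stimulated over unstimulated cells (SE, edgeR adjusted p = 7.1e-06). IMD-0354 cells averaged 147% of the stimulated mean, a log2 fold change of 0.56 ± 0.36 that did not pass the test (SE, edgeR adjusted p = 0.23) and was 0.23 without stimulated library 3. An antisense gene over Csf2, Gm12223, had 6 counts in IMD-0354, 3 in stimulated and 0 in unstimulated libraries, beside 4058, 2968 and 98 counts of Csf2 in those groups. A p that misses the threshold does not show that Il3 or Csf2 was unaffected by IMD-0354.

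Lif (ENSMUSG00000034394), a cytokine of the interleukin-6 family that signals through Lifr and Il6st, had the lowest coefficient of variation of the 10 in each group, from 4.34% to 12.5%. It had 77.4, 80.6 and 88.2 CPM in IMD-0354 libraries, 330, 329 and 355 CPM in stimulated libraries and 0.899, 1.11 and 1.14 CPM in unstimulated libraries. The 3 groups lay far apart with little spread inside each. Stimulation raised Lif 322-fold in the means, a log2 fold change of 8.32 ± 0.12 (SE, edgeR adjusted p = 2.4e-10), and IMD-0354 cells kept 24.3% of the stimulated mean, a log2 fold change of -2.04 ± 0.09 (SE, edgeR adjusted p = 3.8e-07). They stayed 78.2-fold above unstimulated cells (edgeR adjusted p = 2.1e-09). Lif spans 4257557 to 4272514 on the plus strand of chromosome 11, 49330 kb from Il4.

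The type 2 genes and the growth factor genes Csf2 and Il3 share a cytokine cluster on chromosome 11, and with IMD-0354 the 5 genes did not all pass the test. Il4 (53602982 to 53618669, minus strand) and Il13 (53631324 to 53634702, minus strand) are 12.7 kb apart, and Il5 (53720794 to 53725106, plus strand) follows 86.1 kb on, with Rad50 between them. Csf2 (54247271 to 54249667, minus strand) and Il3 (54265303 to 54267277, minus strand) lie 15.6 kb apart and 522 kb beyond Il5. Il4, Il13 and Il5 fell with IMD-0354, and Csf2 and Il3 did not pass the test. The difference between these 2 sets of genes was itself not tested. All 7 other listed genes of this region are given, whatever their change: 3 fell with IMD-0354 (Kif3a by 1.48, Rad50 by 1.26 and P4ha2 by 2.25 on the log2 scale), Irf1 rose by 1.93, and 3 did not pass the test (Sept8 at -1.17, Slc22a5 at 0.08 and Acsl6 at -0.61). Irf1, an interferon-regulated transcription factor gene next to Il5, averaged 341 ± 35.1 CPM in IMD-0354, 89.8 ± 3.37 CPM in stimulated and 189 ± 31.4 CPM in unstimulated cells (SD, n = 3 each), opposite in direction to Il4, Il5 and Il13 in both comparisons with stimulated cells (edgeR adjusted p = 3.1e-06 against stimulated cells with IMD-0354 and 3.0e-05 for stimulation). Across 22 listed neighbours of the 10 members, 19 were tested. The cytokine genes Il17f, Il22 and Osm among them are also counted in the list of other T cell cytokine genes below. The counts and medians of the neighbours thus include cytokine genes. With IMD-0354, 3 of the 19 rose and 9 fell, beside 21.7% and 22.8% of all tested genes, with a median of -1.05 against 0.03 over all genes. With stimulation 11 rose and 4 fell, beside 32.0% and 34.0% of all tested genes, with a median of 1.50 against -0.05 over all genes. With IMD-0354 the largest changes apart from P4ha2 were those of Castor1 (-3.11 ± 0.21), Hormad2 (-2.74 ± 0.42) and Osm (-1.95 ± 0.18), all listed as neighbours of Lif (log2, SE; edgeR adjusted p = 4.1e-06, 5.6e-04 and 2.1e-05). Osm encodes oncostatin M, a cytokine of the same family as Lif, and averaged 12.8 ± 2.35 CPM in IMD-0354 and 49.9 ± 3.44 CPM in stimulated cells (SD, n = 3 each).

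**Figure D3:**
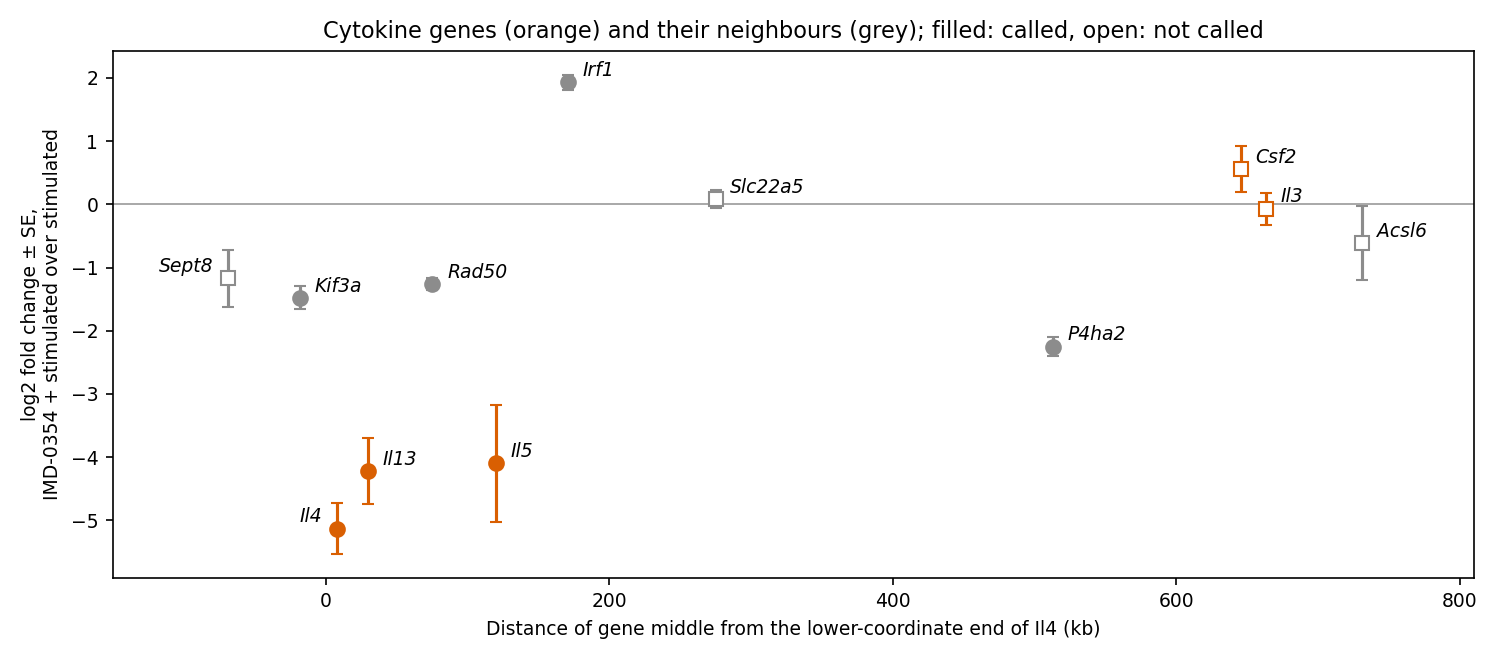
Log2 fold change ± approximate SE, IMD-0354 + stimulated over stimulated (vertical axis), against distance in kb from the lower-coordinate end of Il4 (horizontal axis) for the 5 cytokine genes of the chromosome 11 cluster (orange) and 7 listed neighbours (grey). Filled points passed an adjusted p of 0.05. Il4, Il13 and Il5 lie at -5.13, -4.22 and -4.10 at the left, and Csf2 and Il3 lie at 0.56 and -0.07 at the right.

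Levels were compared between genes after division by exon length (CPM per kb of the GENCODE exons). In stimulated cells the order was Il24 (227 CPM per kb), Ifng (201), Lif (77.6), Il13 (45.1), Csf2 (25.9), Il3 (22.7), Il10 (8.92), Il17a (6.24), Il4 (5.92) and Il5 (1.36). Il24 and Ifng overlapped between libraries, as did Csf2 and Il3, and Il10, Il17a and Il4, while Lif, Il13 and Il5 overlapped with no neighbour. In IMD-0354 cells Ifng (96.8 CPM per kb) led Csf2 (38.1), Il3 (21.6) and Lif (18.9), of which Il3 and Lif overlapped. Il17a (2.50) and Il13 (2.40) followed and overlapped, then Il10 (0.575), Il24 (0.339), Il4 (0.166) and Il5 (0.0769), where Il24 overlapped Il4 and Il4 overlapped Il5. In unstimulated cells Ifng (9.29 CPM per kb) stood far above Il10 (1.22) and Csf2 (0.939), which overlapped, and Il4 (0.381), Lif (0.241), Il13 (0.168), Il17a (0.0953) and Il5 (0.0176), each of which overlapped the next.

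The 10 genes summed to 259 ± 53.2 CPM in IMD-0354, 1031 ± 89.4 CPM in stimulated and 16.2 ± 2.11 CPM in unstimulated libraries (SD, n = 3 each). As a share of the summed length-scaled level, Ifng made up 53.3 ± 0.872% in IMD-0354, 32.3 ± 2.65% in stimulated and 74.9 ± 4.35% in unstimulated libraries (SD, n = 3 each). Il24 took 0.183 ± 0.0834% in IMD-0354, 36.4 ± 4.35% in stimulated and 0% in unstimulated libraries, and it was the gene whose share differed most between IMD-0354 and stimulated cells. Csf2 took 21.0 ± 0.265% in IMD-0354 and 4.26 ± 2.05% in stimulated libraries, and Il3 took 11.9 ± 1.35% in IMD-0354 and 3.67 ± 0.872% in stimulated libraries. The share of Lif was 10.7 ± 1.90% in IMD-0354 and 12.5 ± 0.700% in stimulated libraries, and that of Il13 was 1.25 ± 0.493% in IMD-0354 and 7.24 ± 0.231% in stimulated libraries. A share rises when other members fall, so that the higher shares of Ifng, Csf2 and Il3 with IMD-0354 do not by themselves show rises of those genes.

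**Figure D4:**
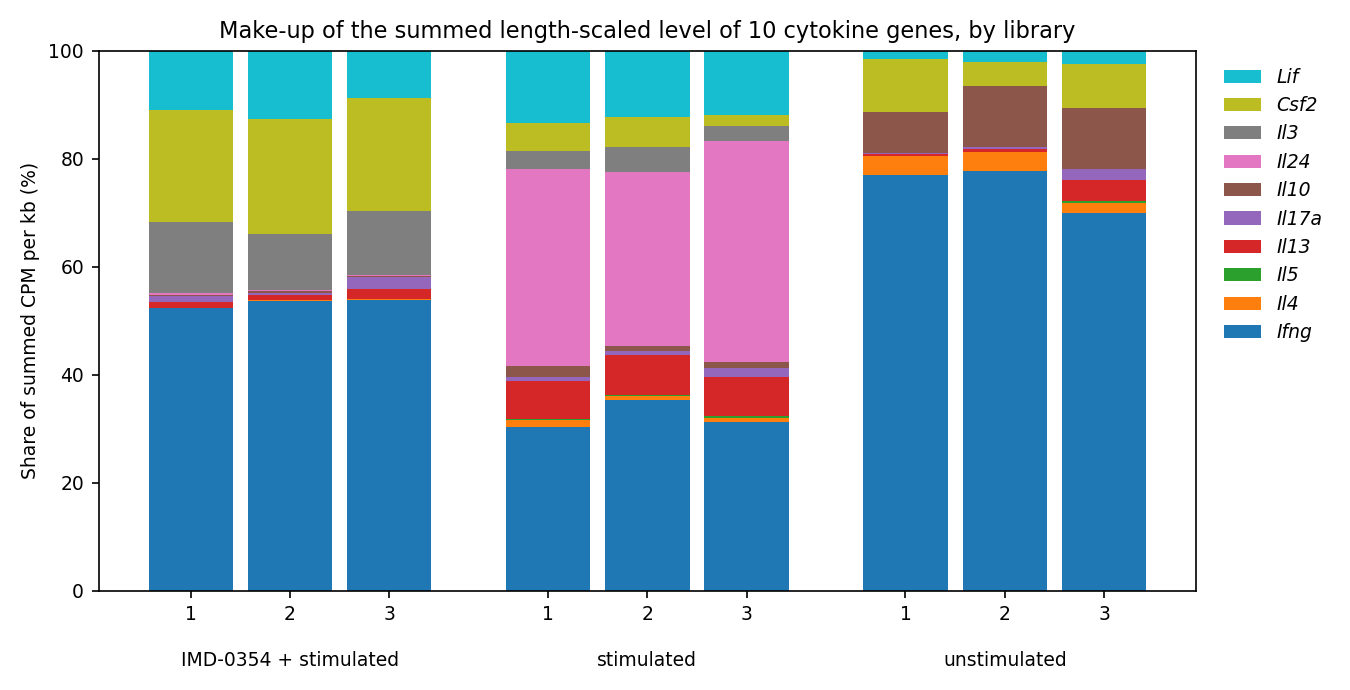
Share (%) of the summed CPM per kb of the 10 cytokine genes in each of the 9 libraries, IMD-0354 + stimulated at left, then stimulated, then unstimulated; colours stand for genes. Il24 (pink) fills 36.4% of the stimulated bars on average and is barely visible in the others, and Csf2 and Il3 widen to 21.0% and 11.9% in the IMD-0354 bars.

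The log2 ratio of Il4 to Ifng CPM in each library was read as the balance of this type 2 gene to this type 1 gene alone. It was -9.19, -9.21 and -9.36 in IMD-0354 libraries, -4.57, -5.62 and -5.37 in stimulated libraries and -4.50, -4.54 and -5.30 in unstimulated libraries. The IMD-0354 libraries lay below all others, while the stimulated and unstimulated ones overlapped. The mean difference was -4.07 between IMD-0354 and stimulated cells and -4.47 between IMD-0354 and unstimulated cells, each at the smallest value that a two-sided exact permutation test of 3 against 3 libraries can give, p = 0.10. Between stimulated and unstimulated cells it was -0.41 (two-sided exact permutation p = 0.20). With 0.5 CPM added to both genes the differences were -2.37, -3.75 and -1.39 in the same order of comparisons. The ratio then ran from -7.77 to -7.26 in IMD-0354 libraries, -5.50 to -4.50 in stimulated libraries and -3.76 to -3.65 in unstimulated libraries, so that the stimulated and unstimulated ones no longer overlapped. Whether those 2 groups overlap in this ratio thus depends on the offset. The ratio does not stand for all type 2 genes. In stimulated over unstimulated cells the log2 fold change was 7.97 for Il13 and 6.03 for Il5, beside 3.97 for Il4 and 4.44 for Ifng. In IMD-0354 over unstimulated cells it was 3.75 for Il13 and 1.93 for Il5, beside -1.17 for Il4 and 3.38 for Ifng. Ratios of Il13 or Il5 to Ifng were not tested.

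Genes outside the 10 with the most similar pattern were sought for the 7 members that averaged at least 10 CPM in some group, by the root mean square difference of log2(CPM + 0.1) over the 9 libraries after centring. Ifng was nearest to Psat1, a serine synthesis enzyme (0.21), Il12rb1, a chain of the interleukin-12 receptor (0.22), and Nlgn2 (0.23). Lif was nearest to Cth (0.33), Slc7a3 (0.62) and Ncs1 (0.66), and Il3 to Bcat1, a branched-chain amino acid transaminase (0.37), Arfgef3 (0.63) and Dclk1 (0.63). Csf2 was nearest to Spin4 (0.51), Utf1 (0.52) and Eno2 (0.55), and Il10 to Ociad2 (0.29), Mcf2l (0.31) and Itga7 (0.33). Il13 had no gene closer than Gzmb, the cytotoxic granule protease (0.80), and Il24 none closer than Gzmc, another granzyme (1.70), the largest such difference of the 7. This measure grows with the size of a change. Il3 and Il24 had 0 counts in every unstimulated library, so that their distances, correlations and nearest genes depend on the 0.1 CPM offset. The correlation over the 9 libraries was 0.99 between Il24 and Gzmc and 0.97 between Il13 and Gzmb. Gzmc averaged 0.511 ± 0.0316 CPM in IMD-0354, 46.9 ± 16.1 CPM in stimulated and 0.120 ± 0.147 CPM in unstimulated libraries (SD, n = 3 each). Among the members themselves, Il4 was nearest to Il10 at 0.53, closer than to its neighbour Il13 at 2.15 or to Il5 at 0.92. The correlation of Il4 over the 9 libraries was 0.98 with Il10, 0.92 with Il24, 0.89 with Il5 and 0.76 with Il13. In unstimulated cells Il5 lay below the 0.1 CPM offset in every library, and Il13 in libraries 1 and 2, so that these distances can depend on the offset.

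Other T cell cytokine genes did not share one direction under IMD-0354. Of 20 listed, 18 were tested; 6 rose and 6 fell with IMD-0354 against stimulated cells, beside 21.7% and 22.8% of all tested genes, with a median log2 fold change of 0.22. Il2, the T cell growth factor, averaged 49.1 ± 10.4 CPM in IMD-0354 and 2.89 ± 1.26 CPM in stimulated cells (SD, n = 3 each), a rise of 4.09 ± 0.34 (log2, SE, edgeR adjusted p = 1.3e-05), and the chemokine gene Xcl1 averaged 128 ± 9.48 CPM in IMD-0354 and 8.54 ± 2.36 CPM in stimulated cells, a rise of 3.91 ± 0.23 (log2, SE, edgeR adjusted p = 1.6e-06). Il21, a cytokine that helps B cells, went the way of the type 2 genes, with 1.12 ± 0.473 CPM in IMD-0354 and 47.5 ± 14.9 CPM in stimulated cells (log2 fold change -5.40 ± 0.35, SE, edgeR adjusted p = 3.0e-06). Il9, a mast cell growth factor, had 0.259 ± 0.233 CPM in IMD-0354 cells, 3.68 ± 1.84 CPM in stimulated cells and 0 counts in unstimulated cells (log2 fold change -3.82 ± 0.89 against stimulated cells, SE, edgeR adjusted p = 0.0093). With stimulation 12 of the 18 rose and 4 fell, beside 32.0% and 34.0% of all tested genes, with a median of 1.33. Lta, the gene of lymphotoxin-alpha, averaged 264 ± 38.7 CPM in stimulated and 7.09 ± 0.625 CPM in unstimulated cells, and Il22, which acts on epithelia, 2.09 ± 1.74 CPM in stimulated and 0.0309 ± 0.0536 CPM in unstimulated cells (edgeR adjusted p = 2.8e-09 and 0.0050).

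The receptor chains of the 10 cytokines mostly fell with stimulation. Of 20 listed, 18 were tested; 2 rose and 14 fell in stimulated over unstimulated cells, beside 32.0% and 34.0% of all tested genes, with a median log2 fold change of -1.70 against -0.05 over all genes. Il13ra1, a chain of the Il13 receptor, averaged 0.232 ± 0.0927 CPM in stimulated and 18.9 ± 6.01 CPM in unstimulated cells, Csf2rb, the beta chain shared by the receptors for Il3, Il5 and Csf2, 2.38 ± 1.04 CPM in stimulated and 62.3 ± 20.2 CPM in unstimulated cells, and Lifr 0.433 ± 0.0597 CPM in stimulated and 18.3 ± 4.12 CPM in unstimulated cells (SD, n = 3 each). Csf2rb and Il13ra1 are also expressed in myeloid or B cells, and all 8 markers of each of those lists fell in the same comparison. Their part in this fall was not tested. With IMD-0354, 9 rose and 4 fell against stimulated cells, beside 21.7% and 22.8% of all tested genes, with a median of 0.55. Csf2rb rose by 2.15 ± 0.37 and Il6st, the signal chain of the Lif receptor, by 1.59 ± 0.11, and Il10ra, the ligand-binding chain of the Il10 receptor, was at -1.51 ± 0.10 (log2, SE; edgeR adjusted p = 0.0011, 4.9e-06 and 4.3e-06).

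Transcription factors and signal transducers known to act on helper cytokine genes were spread over both directions. All 25 listed were tested; 8 rose and 11 fell with IMD-0354 against stimulated cells, beside 21.7% and 22.8% of all tested genes, with a median log2 fold change of -0.20. Nfil3 averaged 10.2 ± 1.43 CPM in IMD-0354, 181 ± 9.52 CPM in stimulated and 12.3 ± 1.85 CPM in unstimulated cells (SD, n = 3 each). It fell by 4.14 ± 0.14 with IMD-0354 on the log2 scale (SE, edgeR adjusted p = 1.7e-07). Bcl6, a repressor that marks follicular helper cells, moved the other way, with 15.7 ± 1.07 CPM in IMD-0354 and 2.30 ± 0.0303 CPM in stimulated cells, a rise of 2.78 ± 0.14 (log2, SE, edgeR adjusted p = 6.8e-07). Hlx, a homeobox factor that favours Ifng, was at -3.16 ± 0.43, and Prdm1, a repressor of effector genes that also supports Il10, at -2.05 ± 0.21 (log2, SE; edgeR adjusted p = 2.5e-04 and 5.3e-05). Gata3 and Tbx21, the lineage factors of T helper 2 and T helper 1 cells, fall outside the naming rule and were picked after their values were seen. Gata3 averaged 113 ± 13.3 CPM in IMD-0354 and 279 ± 15.7 CPM in stimulated cells (log2 fold change -1.31 ± 0.13, SE, edgeR adjusted p = 3.8e-05), and Tbx21 134 ± 5.87 CPM in IMD-0354 and 55.0 ± 2.79 CPM in stimulated cells (1.29 ± 0.08, SE, edgeR adjusted p = 1.6e-06). With stimulation 10 of the 25 rose and 11 fell, near the 32.0% and 34.0% of all tested genes, with a median of 0.01, and Irf4, a factor induced by T cell receptor signals, averaged 1068 CPM in stimulated and 60.0 CPM in unstimulated cells (log2 fold change 4.15 ± 0.24, SE, edgeR adjusted p = 3.0e-07).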

How the data were processed

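Total RNA libraries of 9 samples were sequenced. The deposited table holds read counts per gene that are whole numbers and not normalized; the submitters' processing notes name STAR 2.7.1a, featureCounts and mm10. The annotation release, strand setting and counting of mates were not given in the sources used here. Of the counts from 1 to 10 in a library, 70.6% to 78.5% were even, so that a fragment may have been counted as 2 reads and counting errors may be too small. Reads of a castaneus allele were compared with a C57BL/6 reference. GENCODE M21 named 49412 identifiers, and 259 were left without a name.

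Counts were analysed in R 4.3.3 with edgeR 4.0.16: filterByExpr, TMM factors and quasi-likelihood F tests with group as the only term over all 9 libraries (6 residual degrees of freedom), two-sided, with Benjamini-Hochberg adjustment over 18374 genes and a threshold of 0.05. CPM use TMM sizes, standard errors were taken as the log2 fold change divided by the root of F, and a group with 0 counts was given a bound at 3 counts over the group. Alternatives used limma 3.58.1 and DESeq2 1.42.0. The members and the gene lists were chosen with earlier results of these data known. All members are named; from each list at most the 4 genes with the largest called changes, at least 1 CPM on average and groups without overlap are named, and 3 similar genes per member. All listed neighbours in the chromosome 11 cluster are named outside this rule. Promoter sequences are from RefSeq (GRCm38.p6). No allele-specific values were analysed here.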

Additional observations from a re-analysis of the deposited data

How the results depend on the processing

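The members' 586 recomputed log2 fold changes, over 20 alternative settings, kept their direction and their side of the threshold in 565 cases. Il3 between IMD-0354 and stimulated cells changed sign in 4, at 0.06 (upper-quartile factors), 0.02 (plain totals) and 0.12 without IMD-0354 library 2 and also without stimulated library 2; leaving out single libraries gave -0.29 to 0.12. Calls were lost in 13 cases, of which 11 are Il4 in IMD-0354 against unstimulated cells: under limma voom, in the 6 libraries compared alone, with counts divided by 2, with the replicate block, without both libraries that stood apart, and without each of IMD-0354 libraries 1, 2 and 3, stimulated library 3 and unstimulated libraries 1 and 2 in turn. The other 2, Il10 (adjusted p = 0.103) and Il17a (adjusted p = 0.0821) against unstimulated cells, were lost under limma voom. Calls were gained in 4 cases, 3 of them for Il17a with IMD-0354 and 1 for Csf2. The number of members lower in IMD-0354 than in unstimulated cells, 2 as reported, was 0 under limma voom, 0 with a minimum of 10 CPM in 3 libraries, which leaves out Il4 and Il10, and 1 in the 6 libraries alone, with halved counts, with the block and in the added fit of 7 libraries; it was 1 to 2 with any library left out. The 10 CPM minimum also left 6 members higher with stimulation, 4 members lower with IMD-0354, and among all genes 3738 higher and 3763 lower with stimulation and 3173 higher and 3148 lower in IMD-0354 against unstimulated cells. With no filter 1 member was higher with IMD-0354, Csf2 at 0.52 (adjusted p = 0.0448), and Il17a fell by 1.35 (adjusted p = 0.00191). The causes of these shifts were not tested.

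Upper-quartile factors moved the median log2 fold change of all genes to -0.27 with stimulation and 0.16 with IMD-0354 against stimulated cells, where TMM gave -0.05 and 0.03. The replicate block is reported only here, since nothing in the labels pairs the libraries: deviations of same-numbered libraries correlated at 0.144, 0.107 and 0.0782 between IMD-0354 and stimulated cells, at -0.0826, -0.194 and -0.0388 between IMD-0354 and unstimulated cells, and at 0.00469, -0.0128 and -0.0148 between stimulated and unstimulated cells. With the block Il17a fell by 1.52 with IMD-0354 (adjusted p = 0.00932), Il4 stood at -1.12 against unstimulated cells (adjusted p = 0.0522), and 8 members were lower with IMD-0354 than in stimulated cells. Values of unstimulated cells rest on few counts over 3 libraries for Il5 (4), Il17a (16), Il13 (29), Il4 (60) and Csf2 (98), and on 0 counts for Il3 and Il24.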
